A study of Mus musculus with 3 samples.

Results

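Genes of lysosome acidification, lysosomal proteolysis and autophagy were followed in MIN6, an insulin-producing line from a mouse insulinoma that is widely used in place of primary beta cells. The members were chosen by a rule on gene symbols, set with earlier results of these data known. Some names start with Atp6v0 or Atp6v1 (nearly all subunits of the vacuolar proton pump), Atg followed by a digit, Gabarap or Map1lc3. The others are the cathepsins whose symbol is Cts plus 1 letter, and Lamp1, Lamp2, Sqstm1 and Tfeb. This gave 69 of the 21899 gene symbols in the table, and 50 of them had at least 20 reads in any library and are described. The data are 1 RNA-seq library for each of 3 groups of this line: cells transfected with a negative control siRNA (siNC), with an siRNA against Srsf1 (siSRSF1, titled siASF-1) or with an siRNA against Srsf2 (siSRSF2). SRSF1 and SRSF2 are SR proteins, which bind RNA and promote splicing. The question of the series is how gene expression differs when either factor is targeted. The labels give no siRNA dose, no time after transfection and no further treatment. With 1 library a group, each interval given is a 95% interval for counting error, no spread between cultures could be estimated, and no test between groups or p-value is given.

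The lysosome is kept acid by the V-ATPase, a rotary proton pump. Its cytosolic V1 sector hydrolyses ATP and its membrane V0 sector carries protons, and in beta cells the same pump acidifies insulin granules, where prohormone convertases need a low pH. Cathepsins are proteases that work at this pH. In macroautophagy, ATG proteins build a double membrane around cargo, attach LC3 and GABARAP proteins (the Atg8 family) to it, and the finished autophagosome fuses with lysosomes. TFEB is a transcription factor known from other cells to activate many of these genes through an E-box motif.

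Depth was 12688334 reads in siNC, 14478045 in siSRSF1 and 14682576 in siSRSF2. Ratios compare reads after TMM scaling (edgeR's trimmed mean of M values). A counting interval, where given, follows its ratio in parentheses, and a ratio printed without one may have an interval that includes 1. Srsf1 had 4070 reads in siNC, 3171 in siSRSF1 and 4105 in siSRSF2, a ratio of siSRSF1 to siNC of 0.683 (0.652 to 0.716). Srsf2 had 1193 reads in siNC, 1302 in siSRSF1 and 487 in siSRSF2, a ratio of siSRSF2 to siNC of 0.343 (0.308 to 0.381). The reduction of Srsf1 in its own library was therefore short of 2-fold. All 13 beta-cell markers examined had at least 20 reads in their highest library. Ins2, Iapp and Chga stood at 18910, 20490 and 4196 FPKM in siNC. Slc2a2 was far lower, at 0.575 FPKM in siNC, with 42 reads in siNC, 114 in siSRSF1 and 7 in siSRSF2. Of 13 macrophage markers, 2 had at least 20 reads (Cd68 and C1qa), and 5 (Adgre1, Itgam, Fcgr1, C1qb and C1qc) had 0 reads in every library. Markers of fibroblast and stellate cells summed to between 6 and 12 reads a library and those of acinar cells to at most 4. Of 5 endothelial markers, Vwf alone reached 20 reads, and of 5 ductal markers, Krt7 alone did, with 282 reads in siNC, 659 in siSRSF1 and 313 in siSRSF2.

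Levels differed by role, and most of the lysosomal genes lay in the upper part of the expression range of siNC. Levels are FPKM, reads relative to gene length and library size, as computed by the authors. Lamp1, a glycoprotein of the lysosomal membrane, was the highest member in siNC, with 287 FPKM in siNC, 289 in siSRSF1 and 311 in siSRSF2. Sqstm1, which encodes the autophagy receptor p62, had 258 FPKM in siNC, 346 in siSRSF1 and 350 in siSRSF2, and was above Lamp1 in both siRNA libraries. Lamp1 lay above 99.4% of the 11756 genes with at least 20 reads in any library, the genes compared throughout. Lamp2, which also takes part in fusion and chaperone-mediated autophagy, had 61.9 FPKM in siNC, 58.7 in siSRSF1 and 54.3 in siSRSF2. Tfeb was the lowest of the 50 members in siNC, with 0.612 FPKM in siNC, 1.34 in siSRSF1 and 0.961 in siSRSF2, and 6.59% of genes compared lay below it in siNC. In siSRSF2 Atg9b was lower, at 0.69 FPKM. The order depends on the gene length used, which in the table is the union of all exons. With the length of the principal transcript, a choice made after seeing the data, Sqstm1 came before Lamp1 in siNC (425 and 345) and Atg9b was last (1.23, with Tfeb at 1.51). Neighbours in the order cannot be said to differ, since no spread between cultures is known.

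**Figure D1:**
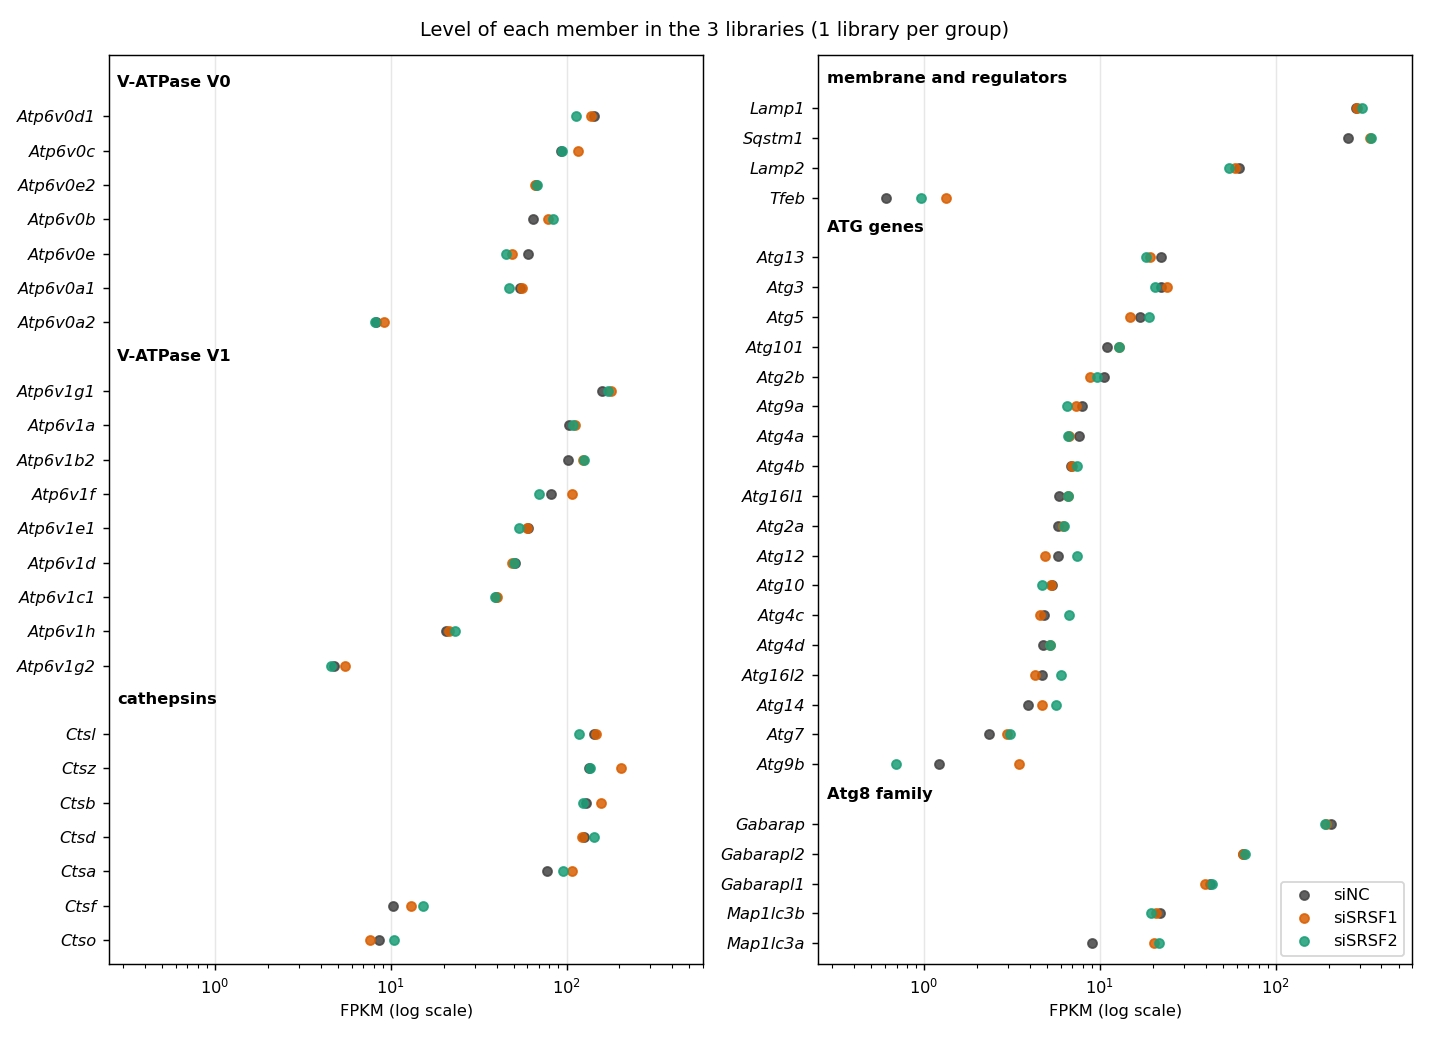
Level in FPKM (horizontal, log scale) of the 50 described members, grouped by role and ordered by siNC, with 1 point for each of the 3 libraries (dark grey siNC, orange siSRSF1, green siSRSF2). The 3 points of most genes lie close together, while those of Map1lc3a, Tfeb and Atg9b are spread.

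Proton pump subunits with more than 1 gene were each carried mainly by 1 gene, except subunit e. Among V1 genes, Atp6v1g1 was highest at 158 FPKM in siNC, followed by Atp6v1a, the catalytic subunit A, at 103 and Atp6v1b2, the widely expressed subunit B, at 102. Atp6v1b1, the renal subunit B, had 1 read in siNC and 0 in the other libraries. Among V0 genes, Atp6v0d1 (subunit d) was highest at 144, followed by Atp6v0c, the proteolipid of the rotating ring, at 92.8 and Atp6v0e2 at 66.9. With the length of the principal transcript, Atp6v0c led the V0 genes in siNC at 265.6, with Atp6v0d1 at 158.5. By that length Atp6v1b2 led the V1 genes at 192.3, with Atp6v1g1 at 158.3. Of the FPKM of subunit a, which anchors the pump to particular membranes, Atp6v0a1 made up 82%, Atp6v0a2 12.5%, Tcirg1 (the a3 form, named outside the member rule) 5.27% and Atp6v0a4 0.216% in siNC. The share of Atp6v0a1 was 81.1% in siSRSF1 and 80.3% in siSRSF2. Subunit e was split between Atp6v0e2 (52.6% in siNC, 57.3% in siSRSF1, 59.9% in siSRSF2) and Atp6v0e. Atp6v1g1 made up 97.1% of subunit G and the neuronal Atp6v1g2 2.91%.

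Of 18 cathepsin genes, 7 passed 20 reads and 4 of these exceeded 100 FPKM in siNC. These were Ctsl, a cysteine protease, at 144, Ctsz, a carboxypeptidase, at 134, Ctsb, a cysteine protease with carboxydipeptidase activity, at 129, and Ctsd, the main aspartic protease of lysosomes, at 126. With the length of the principal transcript, Ctsb was highest at 164, with Ctsl at 151. Ctsa, a serine carboxypeptidase that also protects sialidase and galactosidase, stood at 77.1, while Ctsf and Ctso, both cysteine proteases, stood at 10.3 and 8.55. The 11 cathepsins under 20 reads include Ctss, the antigen-presentation cathepsin, and Ctsg of neutrophils, both with 0 reads in every library, and Ctsk, the osteoclast cathepsin, with 10 reads in siNC, 4 in siSRSF1 and 9 in siSRSF2.

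The ATG genes lay at or under 22.3 FPKM in siNC, while the Atg8 family reached 206. Of the Atg8 family, Gabarap made up 59.9% of the family FPKM in siNC, Gabarapl2 18.8%, Gabarapl1 12.2%, Map1lc3b 6.42% and Map1lc3a 2.63%. With the length of the principal transcript, Map1lc3b (65.7) lay above Gabarapl1 (46.7) in siNC. Among the ATG genes, Atg13, a subunit of the ULK1 kinase complex, Atg3, the enzyme that transfers Atg8 proteins to lipid, and Atg5, part of the ATG12-ATG5 conjugate, were highest at 22.3, 22.2 and 16.9 FPKM. By principal transcript length Atg3 came first at 34.1, with Atg13 at 27.4. Atg7, the activating enzyme of both conjugation systems, stood at 2.35 and Atg9b at 1.22. Atg9a, the widely expressed lipid scramblase of ATG9 vesicles, made up 86.7% of the ATG9 FPKM in siNC, 67.8% in siSRSF1 and 90.4% in siSRSF2.

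The 19 members under 20 reads were 2 V0 genes, 5 V1 genes, 11 cathepsins and the pseudogene Atg4a-ps. Of these, 10 had 0 reads in every library, which allows up to 0.236 CPM in siNC, 0.207 in siSRSF1 and 0.204 in siSRSF2 (3 reads, counting error only). The members with 0 reads throughout were Atp6v0d2, Atp6v1e2, Atp6v1fnb, Atp6v1g3, Ctsg, Ctsj, Ctsm, Ctsq, Ctsr and Ctss. Of these, Atp6v1fnb counts as a V1 gene by its symbol only. Atp6v0a4, Atp6v1b1, Atp6v1c2, Ctsc, Ctse, Ctsh, Ctsk, Ctsw and Atg4a-ps had between 1 and 11 reads in their highest library. The members just outside the minimum were Ctsw, with 10 reads in siNC, 9 in siSRSF1 and 11 in siSRSF2, and Ctsk. The member just inside was Tfeb, with 44 reads in siNC, 110 in siSRSF1 and 80 in siSRSF2.

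Promoter sequence was set beside the levels because TFEB acts through the E-box CACGTG, the core of the CLEAR element. Windows from 250 bases before to 50 bases after the RefSeq start on GRCm38.p6 were found for 41 of the 50 members by symbol. Map1lc3a was among the members with no window. The core CACGTG, which equals its own reverse complement so that both strands are covered, was in a window of 13 of these 41 members (31.7%), against 8.09% of all 27025 genes with a window and 12% of the 9417 of these with at least 20 reads. TCACGTGA, which contains that core, was in 6 of 41 (14.6%), against 1.12% of all genes and 2.22% of those with at least 20 reads. The longer palindrome, TCACGTGA with G before it and C after it, was in 0 of 41, against 0.37% of all genes. The 13 genes were Atp6v0b, Atp6v0d1, Atp6v0e, Atp6v1a, Ctsa, Ctsd, Ctsf, Ctsl, Lamp1, Atg3, Atg5, Atg7 and Atg14. By role, the core was in 4 of 6 cathepsins (66.7%), 3 of 6 V0 genes (50%), 1 of 5 V1 genes (20%), 1 of 4 membrane and regulator genes (25%) and 4 of 16 ATG genes (25%), and in 0 of 4 Atg8 family genes. The match is of letters in these windows only.

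**Figure D2:**
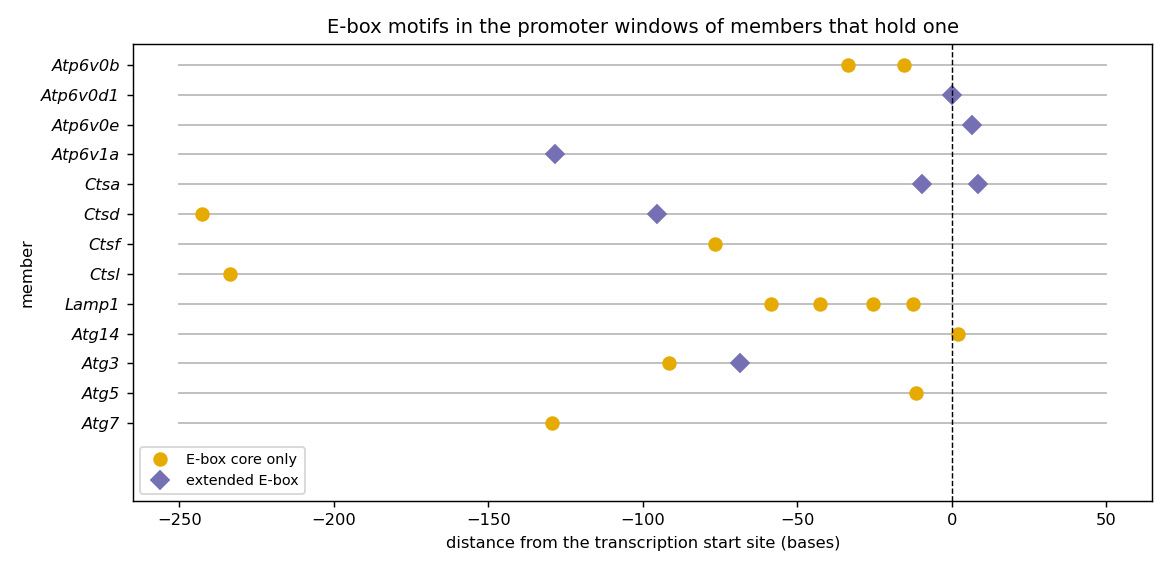
Position of E-box cores in the promoter windows of the 13 members that hold one (horizontal, bases from the transcription start site, dashed line), with diamonds where the core lies within the extended 8-base form and circles elsewhere. Lamp1 has 4 cores within 61 bases of the start, and Ctsa has 2 extended forms around the start of 1 of its 2 windows.

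Lamp1, with the most cores, and the 6 members whose window holds TCACGTGA (Ctsa, Ctsd, Atp6v0d1, Atp6v0e, Atp6v1a and Atg3) are shown. Members with a core lay on both sides of siNC in siSRSF1, such as Ctsa at 1.4 and Atp6v0e at 0.818. Sqstm1 and Atg9b, chosen for their ratios above siNC in siSRSF1, hold no core in this window and are also shown. Each runs 5′ to 3′ along the gene's strand from 250 bases before the start to its base 30 (RefSeq, GRCm38.p6), with the core CACGTG in capitals. The windows are Lamp1 chr8:13158911-13159190 (plus strand), Ctsa chr2:164833523-164833802 (plus strand), Ctsd chr7:142387798-142388077 (minus strand), Atp6v0d1 chr8:105566035-105566314 (minus strand), Atp6v0e chr17:26676146-26676425 (plus strand), Atp6v1a chr16:44139230-44139509 (minus strand), Atg3 chr16:45158579-45158858 (plus strand), Sqstm1 chr11:50210791-50211070 (minus strand) and Atg9b chr5:24392114-24392393 (minus strand).
Lamp1: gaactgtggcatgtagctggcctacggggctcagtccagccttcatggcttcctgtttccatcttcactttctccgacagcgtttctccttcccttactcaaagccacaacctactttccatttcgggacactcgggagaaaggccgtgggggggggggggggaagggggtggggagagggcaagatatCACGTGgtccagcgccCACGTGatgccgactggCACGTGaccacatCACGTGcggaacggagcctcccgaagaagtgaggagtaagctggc
Ctsa: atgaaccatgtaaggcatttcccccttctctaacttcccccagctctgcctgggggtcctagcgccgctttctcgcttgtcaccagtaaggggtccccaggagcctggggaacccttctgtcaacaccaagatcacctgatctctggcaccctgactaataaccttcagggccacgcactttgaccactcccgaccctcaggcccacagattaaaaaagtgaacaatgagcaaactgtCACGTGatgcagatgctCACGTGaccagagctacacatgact
Ctsd: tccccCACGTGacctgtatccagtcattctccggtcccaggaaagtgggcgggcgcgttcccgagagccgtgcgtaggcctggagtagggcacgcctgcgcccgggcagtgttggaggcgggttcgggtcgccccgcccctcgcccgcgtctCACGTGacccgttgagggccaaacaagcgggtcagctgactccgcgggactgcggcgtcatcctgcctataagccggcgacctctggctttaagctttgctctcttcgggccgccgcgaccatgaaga
Atp6v0d1: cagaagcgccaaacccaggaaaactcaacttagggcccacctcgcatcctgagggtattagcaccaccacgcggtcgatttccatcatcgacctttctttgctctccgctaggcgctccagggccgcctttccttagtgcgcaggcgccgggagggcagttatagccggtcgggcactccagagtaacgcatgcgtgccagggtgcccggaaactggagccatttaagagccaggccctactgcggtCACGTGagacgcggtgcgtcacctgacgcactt
Atp6v0e: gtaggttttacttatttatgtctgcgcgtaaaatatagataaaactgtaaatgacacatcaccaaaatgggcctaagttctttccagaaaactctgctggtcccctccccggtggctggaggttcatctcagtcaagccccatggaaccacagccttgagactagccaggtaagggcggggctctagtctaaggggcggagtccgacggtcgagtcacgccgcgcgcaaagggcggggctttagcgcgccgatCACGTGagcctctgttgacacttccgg
Atp6v1a: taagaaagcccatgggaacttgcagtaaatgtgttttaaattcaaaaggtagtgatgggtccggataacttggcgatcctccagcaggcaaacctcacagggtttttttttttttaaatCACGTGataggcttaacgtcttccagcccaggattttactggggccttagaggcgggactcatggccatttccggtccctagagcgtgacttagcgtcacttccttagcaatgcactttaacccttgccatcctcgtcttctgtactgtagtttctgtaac
Atg3: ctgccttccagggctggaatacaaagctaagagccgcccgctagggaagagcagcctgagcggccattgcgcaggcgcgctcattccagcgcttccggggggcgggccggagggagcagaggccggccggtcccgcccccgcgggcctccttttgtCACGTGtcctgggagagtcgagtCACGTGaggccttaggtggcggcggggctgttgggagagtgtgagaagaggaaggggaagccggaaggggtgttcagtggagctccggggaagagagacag
Sqstm1: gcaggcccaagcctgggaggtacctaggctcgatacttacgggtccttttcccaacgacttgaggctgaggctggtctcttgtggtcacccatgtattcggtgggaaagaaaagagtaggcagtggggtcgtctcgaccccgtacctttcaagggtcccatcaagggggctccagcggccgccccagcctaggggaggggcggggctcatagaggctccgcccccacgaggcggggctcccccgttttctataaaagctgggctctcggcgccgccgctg
Atg9b: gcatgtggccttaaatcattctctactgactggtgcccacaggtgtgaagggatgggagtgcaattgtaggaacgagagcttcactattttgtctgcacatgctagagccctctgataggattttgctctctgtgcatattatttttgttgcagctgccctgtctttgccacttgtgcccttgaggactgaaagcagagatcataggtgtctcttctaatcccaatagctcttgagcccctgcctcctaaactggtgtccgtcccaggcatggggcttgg
In Lamp1 the 4 cores begin 61, 45, 28 and 15 bases before the start. In Ctsa the pair begins 12 bases before the start and at base 6 after it. Ctsa has 2 windows, the one with the most cores is shown, and the other holds 0 cores. Over the 13 members with a core the median log2 ratio was 0.11 in siSRSF1 and 0.13 in siSRSF2, and over the 28 without it was -0.01 and -0.04. The values ran from -0.29 to 0.48 with a core and from -0.26 to 1.5 without in siSRSF1, and from -0.45 to 0.53 and from -0.85 to 0.6 in siSRSF2. For siSRSF1 over siSRSF2 the medians were -0.01 with a core and 0.06 without. No GC correction was applied to these medians, and none was taken over all genes with or without a core. These are descriptions, with no test.

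Against siNC, most members differed little in either siRNA library, and 3 genes stood out by size. Where a pair of ratios is given, the siSRSF1 library over siNC comes first and the siSRSF2 library over siNC next. A gene is called higher or lower when the ratio is at least 2-fold and the counting interval excludes 1. In siSRSF1, 3 of 50 members were called higher (Atg9b, Map1lc3a and Tfeb), which is 6%, against 2.4% of the 11756 genes compared, and 0 were called lower, against 1.26%. In siSRSF2, 1 of 50 was called higher (Map1lc3a), which is 2%, against 2.53%, and 0 lower, against 1.17%. The median log2 ratio of the 50 members was 0.04 in siSRSF1 (all genes compared 0.00) and 0.01 in siSRSF2 (all genes 0.02), with ranges of ratios from 0.818 to 2.83 and from 0.554 to 2.32. After correction for transcript GC content the called members were 1 (Atg9b, against 1.94% of genes) in siSRSF1 and 0 (against 2.16%) in siSRSF2. Both comparisons share the siNC library. In bulk RNA, a difference in how many cells express a gene and one in RNA per cell cannot be told apart.

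The interval excluded 1 upward for 18 members (36%, against 26.9% of genes) and downward for 7 (14%, against 25.2%) in siSRSF1. In siSRSF2 it did so for 16 upward (32%, against 27.8%) and 15 downward (30%, against 25.2%). Intervals narrow with reads, so these shares also depend on level. At 1.5-fold in place of 2-fold, 4 members were higher (6.03% of genes) and 0 lower (4.31%) in siSRSF1, and 2 higher (7.18%) and 1 lower (4.39%) in siSRSF2. Between the siRNA libraries, 1 member was called higher in siSRSF1 than in siSRSF2 (Atg9b, 2%, against 1.99% of genes) and 0 lower (against 2.41%). Atg9b was also the 1 member called after GC correction (against 2.01%), and at 1.5-fold 3 were higher (5.78%) and 0 lower (7.6%). The interval of siSRSF1 over siSRSF2 excluded 1 upward for 22 members (44%, against 28.9% of genes) and downward for 8 (16%, against 29%).

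**Figure D3:**
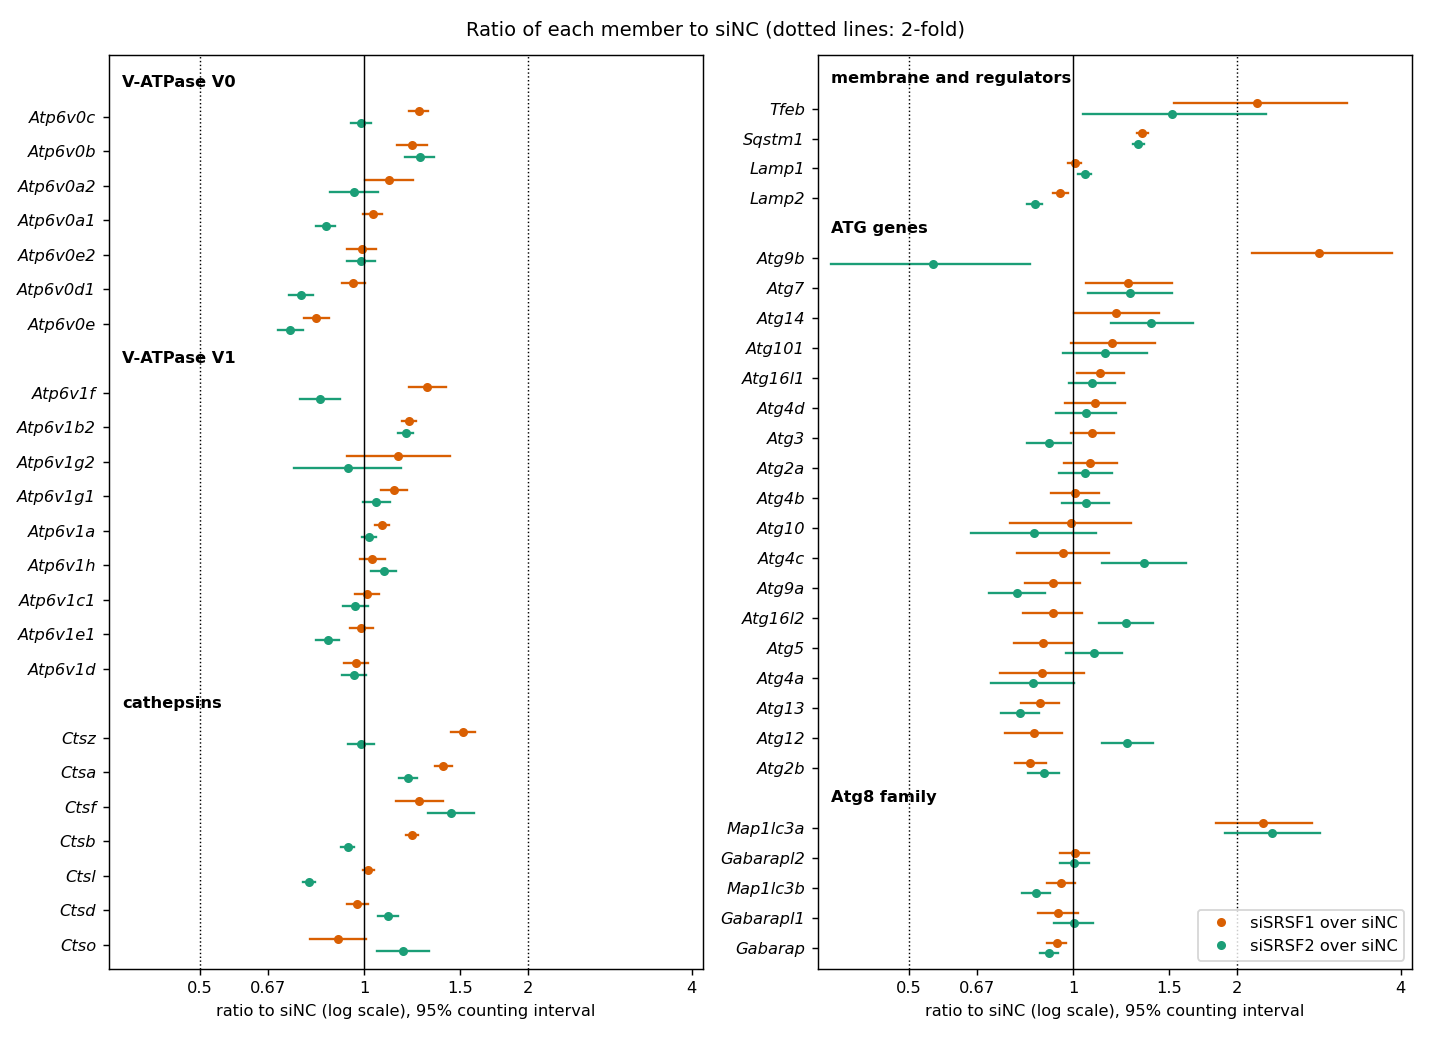
Ratio to siNC (horizontal, log scale) of the 50 described members by role, for siSRSF1 (orange) and siSRSF2 (green), with 95% counting intervals as bars and dotted lines at 2-fold. Map1lc3a lies past 2-fold in both libraries, Atg9b lies at 2.83 in siSRSF1 and 0.554 in siSRSF2, and most other members lie within 1.5-fold of siNC.

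Among the membrane and regulator genes, Tfeb and Sqstm1 lay above siNC in both libraries while the LAMP genes lay near it. Tfeb (ENSMUSG00000023990, GRCm38 chromosome 17, 47737030 to 47792419) had 44 reads in siNC, 110 in siSRSF1 and 80 in siSRSF2. Its level was lowest in siNC, with ratios of 2.18 (1.53 to 3.19) in siSRSF1 and 1.52 (1.04 to 2.26) in siSRSF2. GC correction gave 1.67 and 1.19 and ended the call in siSRSF1. The transcript of Tfeb is 63.2% GC, against a median of 49.5% over the genes compared. Sqstm1 (ENSMUSG00000015837, chromosome 11, 50199366 to 50210827) had 10979 reads in siNC, 16790 in siSRSF1 and 17235 in siSRSF2. Both siRNA libraries lay above siNC by similar amounts, with ratios of 1.34 (1.31 to 1.37) and 1.32 (1.29 to 1.35), and GC correction gave 1.28 and 1.29. Sqstm1 shares up to 580 exon bases with Mrnip on the opposite strand, which had 29, 81 and 52 reads. Lamp1 had 9748 reads in siNC, 11196 in siSRSF1 and 12206 in siSRSF2, ratios of 1.01 (0.98 to 1.04) and 1.05 (1.02 to 1.08). Lamp2 had 7506 reads in siNC, 8112 in siSRSF1 and 7608 in siSRSF2, ratios of 0.948 (0.919 to 0.978) and 0.851 (0.824 to 0.879). GC correction gave 1.05 and 0.881 for Lamp2, so its siSRSF1 value changed side. The summed reads of these 4 genes stood at 1.12 of siNC in siSRSF1 and 1.1 in siSRSF2, and without Sqstm1 at 0.985 and 0.965.

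The pump genes differed from siNC by less than 1.5-fold. For siSRSF1 over siSRSF2 the interval lay above 1 for 5 of 7 V0 genes (71.4%) and 6 of 9 V1 genes (66.7%), against 28.9% of genes compared. Most pump genes have many reads and so narrow intervals, and the shares are not alike in level. Summed V0 reads were 19010 in siNC, 22789 in siSRSF1 and 20424 in siSRSF2, ratios of 1.05 (1.03 to 1.07) and 0.902 (0.884 to 0.920), and 1.17 (1.14 to 1.19) for siSRSF1 over siSRSF2. Without Atp6v0c, the V0 gene with the most reads over the 3 libraries, the siSRSF1 ratio was 0.996 (0.974 to 1.02) and the siSRSF2 ratio 0.879 (0.860 to 0.899). The median log2 ratio over the 7 V0 genes was 0.05 in siSRSF1 and -0.06 in siSRSF2. Summed V1 reads gave 1.09 (1.08 to 1.11) and 1.03 (1.02 to 1.05), with medians of 0.11 and -0.05 over 9 genes. For siSRSF1 over siSRSF2 the V1 sum gave 1.057, and 1.026 under plain totals. No V0 or V1 gene was called in any of the 3 comparisons. Of genes compared, 2.4% were called higher and 1.26% lower in siSRSF1, and 2.53% and 1.17% in siSRSF2. For siSRSF1 over siSRSF2 the shares were 1.99% and 2.41%. With so few pump genes, 0 calls says little beside these shares.

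Single subunits differed within the same sector. Atp6v0c had 3986 reads in siNC, 5727 in siSRSF1 and 4691 in siSRSF2, ratios of 1.26 (1.21 to 1.31) and 0.988 (0.947 to 1.03). Atp6v0d1 had 3276 reads in siNC, 3572 in siSRSF1 and 2987 in siSRSF2, ratios of 0.956 (0.912 to 1.0) and 0.765 (0.728 to 0.805). Atp6v0e, which encodes the small subunit e1, had 2841 reads in siNC, 2649 in siSRSF1 and 2480 in siSRSF2 and was the lowest pump gene in both libraries, at 0.818 (0.775 to 0.863) and 0.733 (0.694 to 0.774). Its paralogue Atp6v0e2 stood at 0.99 and 0.988, so the pair of genes differed in ratio. Atp6v0b, which encodes the c″ proteolipid, stood above siNC in both, at 1.23 and 1.27. Atp6v0a1 stood at 1.04 (0.997 to 1.08) and 0.85 (0.815 to 0.886), and Atp6v0a2 at 1.11 and 0.959.

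In V1, Atp6v1f, a subunit of the central stalk, differed most between the siRNA libraries. It had 1104 reads in siNC, 1646 in siSRSF1 and 1092 in siSRSF2, ratios of 1.31 (1.21 to 1.41) and 0.83 (0.763 to 0.904), and 1.58 (1.46 to 1.7) for siSRSF1 over siSRSF2. The siNC library lay between the other libraries after scaling. Atp6v1b2 had 6892 reads in siNC, 9497 in siSRSF1 and 9790 in siSRSF2 and lay above siNC in both, at 1.21 (1.17 to 1.25) and 1.19 (1.16 to 1.23). Atp6v1g2 stood at 1.16 in siSRSF1, Atp6v1h, a regulatory subunit, at 1.09 in siSRSF2, and Atp6v1e1 at 0.858 in siSRSF2, with 0.989 in siSRSF1. Atp6v1d and Atp6v1c1 had intervals that included 1 in both libraries, and Atp6v1a stood at 1.08 and 1.02.

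Cathepsin genes lay above siNC in siSRSF1 as a sum, led by Ctsz, Ctsa and Ctsb, and not in siSRSF2. Summed reads of all 18 genes were 33782 in siNC, 44845 in siSRSF1 and 38562 in siSRSF2, ratios of 1.16 (1.15 to 1.18) and 0.958 (0.944 to 0.972), and 1.22 (1.2 to 1.23) for siSRSF1 over siSRSF2. Ctsl made up 35.1% of these reads in siNC. Without it the ratios were 1.24 (1.22 to 1.26) and 1.05 (1.03 to 1.07), so the siSRSF2 value changed side. None of the 7 described cathepsins was called. Of genes compared, 2.4% were called higher and 1.26% lower in siSRSF1, and 2.53% and 1.17% in siSRSF2. The median log2 ratio of the 7 cathepsins was 0.29 in siSRSF1 and 0.15 in siSRSF2, and 0.21 and 0.08 after GC correction.

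Ctsz (ENSMUSG00000016256, chromosome 2, 174427493 to 174439039) had 2453 reads in siNC, 4249 in siSRSF1 and 2888 in siSRSF2. The siSRSF1 library was high and the other libraries were alike, with ratios of 1.52 (1.45 to 1.6) and 0.988 (0.936 to 1.04), and GC correction moved the first to 1.37. Ctsa had 4614 reads in siNC, 7358 in siSRSF1 and 6634 in siSRSF2, ratios of 1.4 (1.35 to 1.45) and 1.21 (1.16 to 1.25). Ctsb had 9877 reads in siNC, 13778 in siSRSF1 and 10990 in siSRSF2, ratios of 1.22 (1.19 to 1.26) and 0.934 (0.909 to 0.96), and shares up to 774 exon bases with Fdft1 on the opposite strand (1130, 1628 and 1050 reads). Ctsl had 11842 reads in siNC, 13762 in siSRSF1 and 11165 in siSRSF2 and was the lowest cathepsin in siSRSF2, at 0.792 (0.771 to 0.812), with 1.02 (0.994 to 1.05) in siSRSF1. Ctsd had 3754 reads in siNC, 4160 in siSRSF1 and 4945 in siSRSF2, ratios of 0.972 (0.93 to 1.02) and 1.11 (1.06 to 1.15). Ctsf, with 658 reads in siNC, 948 in siSRSF1 and 1134 in siSRSF2, was the highest cathepsin ratio in siSRSF2, at 1.45 (1.31 to 1.6), and stood at 1.26 in siSRSF1. Ctso, with 556 reads in siNC, 567 in siSRSF1 and 782 in siSRSF2, had 0.895 (0.794 to 1.01) and 1.18 (1.06 to 1.32).

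The ATG genes centred on siNC in both libraries, and Atg9b was the 1 called member. Summed reads of the 19 genes gave 0.977 (0.95 to 1.0) in siSRSF1 and 0.996 (0.970 to 1.02) in siSRSF2, and the medians over 18 described genes were 0.00 and 0.08 on the log2 scale. Atg9b (ENSMUSG00000038295, chromosome 5, 24384181 to 24392143), an ATG9 gene with narrower expression than Atg9a, had 61 reads in siNC, 198 in siSRSF1 and 40 in siSRSF2. It was high in siSRSF1 and low in siSRSF2, with ratios of 2.83 (2.13 to 3.86) and 0.554 (0.36 to 0.834) to siNC and 5.12 (3.67 to 7.46) between the siRNA libraries. GC correction gave 2.49, 0.501 and 4.97. Atg9b shares up to 294 exon bases with Nos3 on the opposite strand, which had 0, 5 and 3 reads. Its paralogue Atg9a had 582 reads in siNC, 609 in siSRSF1 and 548 in siSRSF2, ratios of 0.918 (0.818 to 1.03) and 0.791 (0.702 to 0.89).

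**Figure D4:**
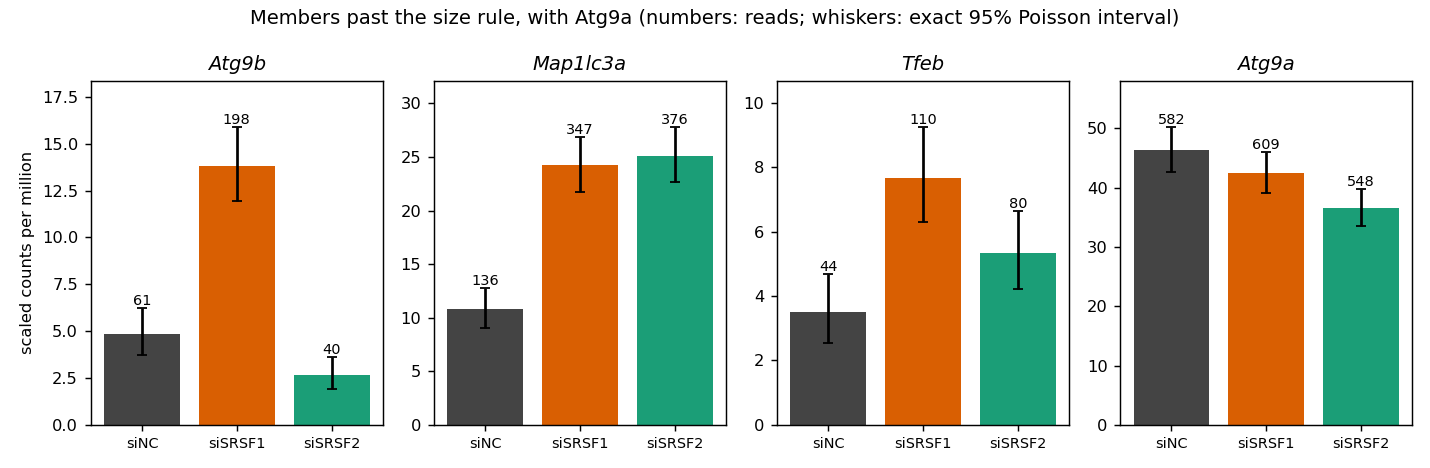
Scaled CPM (vertical, from 0) of the 3 members past the size rule and of Atg9a in siNC, siSRSF1 and siSRSF2, 1 library each. Numbers give the reads and whiskers the exact 95% Poisson interval, and Map1lc3a goes from 136 reads to 347 and 376 while Atg9a goes from 582 to 609 and 548.

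Genes of the conjugation machinery differed by less than 1.5-fold from siNC and not all in 1 direction. Atg12, the ubiquitin-like protein that is joined to ATG5, had 565 reads in siNC, 545 in siSRSF1 and 846 in siSRSF2, ratios of 0.846 (0.751 to 0.953) and 1.26 (1.13 to 1.4), and 0.673 (0.603 to 0.751) between the siRNA libraries, the lowest member in that comparison. Atg5 stood at 0.882 and 1.09, with 0.807 (0.717 to 0.907) between them. Atg16l2 stood at 0.917 and 1.25, and Atg16l1, which carries the conjugate to the membrane, at 1.12 and 1.08. Atg7 had 208 reads in siNC, 300 in siSRSF1 and 315 in siSRSF2 and stood above siNC in both, at 1.26 (1.06 to 1.52) and 1.27 (1.06 to 1.52). Atg3 stood at 1.09 and 0.903, and Atg10, the enzyme that transfers ATG12, at 0.99 and 0.847. The intervals of Atg10 included 1.

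Upstream and processing genes were as mixed. Atg14, the autophagy subunit of the class III PI3-kinase complex, had 215 reads in siNC, 294 in siSRSF1 and 357 in siSRSF2, ratios of 1.2 (1.0 to 1.44) and 1.39 (1.17 to 1.66). Atg13 stood at 0.871 (0.804 to 0.943) and 0.799 (0.737 to 0.866), and Atg101, its partner in the ULK1 complex, at 1.18 and 1.15, with intervals that included 1. Atg2b, a lipid transfer protein, was the lowest ATG gene in siSRSF1, at 0.835 (0.781 to 0.893), with 0.883 in siSRSF2, while Atg2a stood at 1.08 and 1.05. Of the ATG4 proteases, which trim Atg8 proteins and release them from lipid, Atg4c stood at 1.35 in siSRSF2 and 0.959 in siSRSF1. Atg4a, Atg4b and Atg4d had intervals that included 1 in both libraries.

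In the Atg8 family, Map1lc3a (LC3A) stood apart from its 4 paralogues. Map1lc3a (ENSMUSG00000027602, chromosome 2, 155276297 to 155278073) had 136 reads in siNC, 347 in siSRSF1 and 376 in siSRSF2. Both siRNA libraries were high and siNC was low, with ratios of 2.23 (1.83 to 2.75) and 2.32 (1.9 to 2.85), and 0.964 (0.831 to 1.12) between the siRNA libraries. Its transcript is 63.1% GC, and GC correction gave 1.71 and 1.82, which ended both calls. Map1lc3b (LC3B), the form most used as a marker of autophagosomes, had 2112 reads in siNC, 2288 in siSRSF1 and 2151 in siSRSF2, ratios of 0.95 (0.895 to 1.01) and 0.855 (0.805 to 0.908). In siNC the FPKM of Map1lc3b was 22.1 and that of Map1lc3a 9.08, and in siSRSF2 they were 19.5 and 21.7. The length behind Map1lc3b's FPKM is 7517 bases, and with the 2532 bases of its principal transcript its level in siNC was 65.7 against 9.64 for Map1lc3a. Summed reads of the family gave 0.968 (0.943 to 0.995) and 0.942 (0.917 to 0.968), and without Gabarap 1.0 and 0.978. Gabarap stood at 0.933 (0.896 to 0.97) and 0.903 (0.868 to 0.939). Gabarapl1 stood at 0.937 and 1.0 and Gabarapl2 at 1.01 and 1.01, with intervals that included 1.

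All 3 called members have GC-rich transcripts, and the ratios followed GC content over all genes. Genes were put in 10 bins of rising GC content. In siSRSF1 the lowest bin had a median log2 ratio of -0.14 and the top bin 0.23, and in siSRSF2 the same bins had -0.05 and 0.2. Transcript GC content was 63.2% for Tfeb, 63.1% for Map1lc3a and 58.5% for Atg9b, and the top bin begins at 57.9%. The part of GC content in the ratios of these genes was not tested beyond the correction. After it, Atg9b was still called in siSRSF1.

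**Figure D5:**
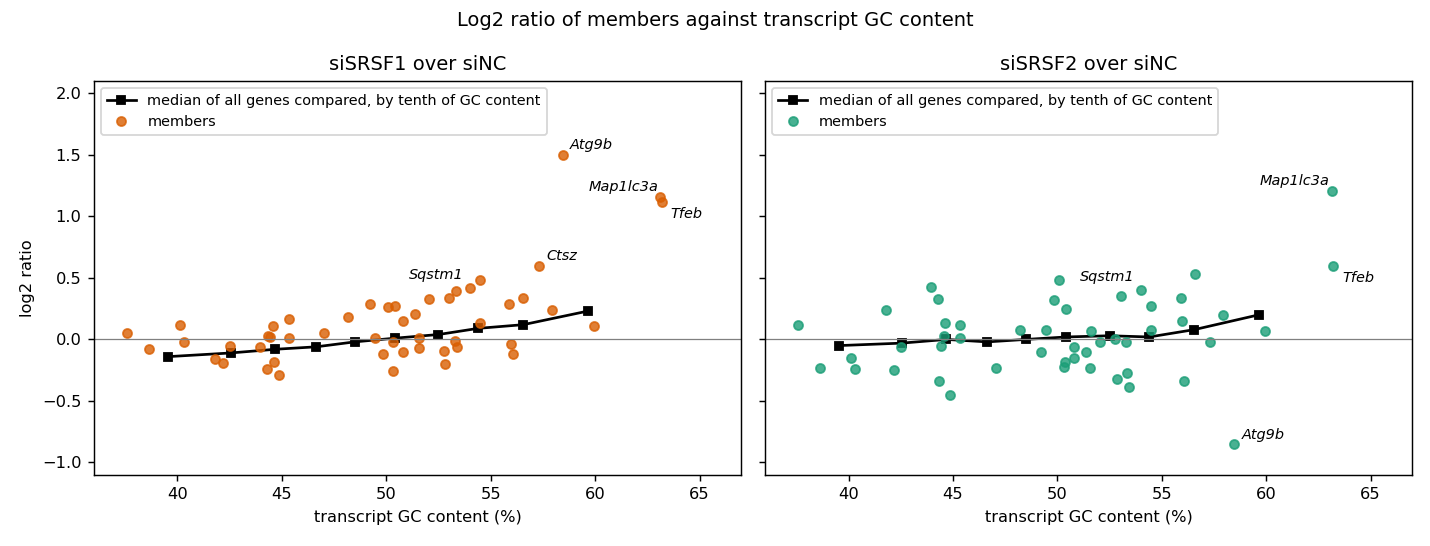
Log2 ratio to siNC (vertical) of the 50 described members against transcript GC content in percent (horizontal), with the median of all genes compared in each of 10 GC bins as black squares at the bin's median GC. The medians climb to 0.23 in siSRSF1 and 0.2 in siSRSF2, and Map1lc3a, Tfeb and, in siSRSF1, Atg9b lie above them.

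Other genes of the same pathways were taken in 9 lists named by function, with 190 genes of at least 20 reads. In siSRSF1, 3 were called higher (1.58%, against 2.4% of all genes compared) and 1 lower (0.526%, against 1.26%). In siSRSF2, 0 were called higher (against 2.53%) and 1 lower (0.526%, against 1.17%), and between the siRNA libraries 2 were higher in siSRSF1 (1.05%, against 1.99%) and 0 lower (against 2.41%). Of 43 lysosomal hydrolases with at least 20 reads, Hyal1, a hyaluronidase, was called higher in siSRSF1 (8 and 34 reads, 3.58 (1.69 to 9.32)) and 0 were called in siSRSF2, with medians of 0.01 and 0.04 on the log2 scale. Sumf1, which activates sulfatases, lay above siNC in both at 1.57 and 1.79, and Gusb, a glucuronidase, had 1647 reads in siNC, 1810 in siSRSF1 and 1093 in siSRSF2, ratios of 0.964 and 0.557. Tpp1, a tripeptidase, lay below siNC in both at 0.722 and 0.759. Of 26 lysosomal membrane and transport genes, Cd68 was called higher in siSRSF1, at 3.61 (2.7 to 4.96) with 56 reads in siNC, 232 in siSRSF1 and 55 in siSRSF2, and medians were -0.05 and 0.03. Cd68 is also a macrophage marker, and C1qa, another, had 87 reads in siNC, 401 in siSRSF1 and 140 in siSRSF2, while Adgre1, Itgam, Fcgr1, C1qb and C1qc had 0 reads in every library and Csf1r and Ptprc at most 4. Summed reads of the 13 macrophage markers, nearly all from Cd68 and C1qa, were 147 in siNC, 645 in siSRSF1 and 202 in siSRSF2. Of the cathepsins, which macrophages also express, Ctsz, Ctsa, Ctsb and Ctsf had intervals above 1 in siSRSF1, Ctsd, Ctsl and Ctso did not, Ctss had 0 reads in every library and Ctsc at most 1. The part of such cells in these ratios was not tested. Hgsnat, an acetyltransferase of the lysosomal membrane, stood at 1.7 in siSRSF1 and 1.04 in siSRSF2, and Mcoln1, the calcium channel TRPML1, at 1.27 and 1.32.

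Among the genes that sort hydrolases to the lysosome, Gnptab differed between the siRNA libraries. Gnptab, which encodes the enzyme subunits that start the mannose 6-phosphate tag, had 1142 reads in siNC, 1646 in siSRSF1 and 713 in siSRSF2. It stood at 1.26 (1.17 to 1.36) in siSRSF1, at 0.524 (0.477 to 0.576) in siSRSF2 and at 2.41 (2.21 to 2.64) between them. The last is the 1 call among the 11 sorting genes in that comparison (9.09%, against 1.99% of genes compared). Nagpa, which uncovers the tag, stood at 1.37 and 1.51, and Igf2r, which carries tagged enzymes, at 1.08 and 0.918. The medians of the list were 0.11 and -0.1. Of 5 cathepsin inhibitors, Cst6 (6, 22 and 16 reads) was called higher in siSRSF1 (20%, against 2.4% of genes compared). Serpinb1a (31, 17 and 16 reads) was called lower in both (20%, against 1.26% in siSRSF1 and 1.17% in siSRSF2). All are on few reads, and GC correction ended the siSRSF1 call of Serpinb1a. Cst6 reached 20 reads only in siSRSF1 and Serpinb1a only in siNC, the library where each is high, so their calls depend in part on that minimum. Cst3, the secreted cystatin C, stood at 0.981 and 1.29 and Cstb at 1.24 and 0.929. Of 14 V-ATPase assembly and accessory genes, 0 were called. Of genes compared, 2.4% were called higher and 1.26% lower in siSRSF1, and 2.53% and 1.17% in siSRSF2. Vma21, an assembly chaperone, stood lowest of the 14 at 0.737 and 0.613. The median of that list was -0.06 in siSRSF1 and 0.00 in siSRSF2.

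The autophagy lists had no call in any of the 3 comparisons. Of genes compared, 2.4% were called higher and 1.26% lower in siSRSF1, and 2.53% and 1.17% in siSRSF2. For siSRSF1 over siSRSF2 the shares were 1.99% and 2.41%. Each list is short, so 0 calls says little beside these shares. Initiation and nucleation genes without an Atg name (18) had medians of -0.01 and -0.03, with the kinase gene Ulk2 at 0.7 and 0.717, and Wipi1, which binds the phosphoinositide of nascent autophagosomes, at 0.727 and 0.831. Autophagy receptors (19) had -0.04 and 0.02, with Calcoco1, a receptor for endoplasmic reticulum, at 1.7 and Bnip3, a mitophagy receptor, at 0.603 in siSRSF2. Fusion genes (23) had -0.02 and 0.02, with Vps16, a subunit of the tethering complexes, at 0.656 in siSRSF2. TFEB relatives and mTORC1 genes at the lysosome (31) had 0.00 and 0.09. Tfe3, a relative of Tfeb, had 8.82 FPKM in siNC and ratios of 1.06 (0.973 to 1.15) and 1.14 (1.05 to 1.24). In this last list Akt1s1, an mTORC1 inhibitor, stood at 1.56 and 1.75, and GC correction gave 1.29 and 1.5. Sesn2, a leucine sensor, stood at 1.75 in siSRSF2 and Deptor, an mTOR inhibitor, at 0.541 (0.495 to 0.59) for siSRSF1 over siSRSF2.

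Within each list the outer values (over genes that reach 100 reads in 1 of the libraries compared) are given here where not named already. They are given without intervals, and some intervals include 1. Examples are Ctbs (0.902 to 1.52) and Abcd4 (0.946 to 1.73) in siSRSF1, and Borcs7 (0.646 to 1.02) in siSRSF2. Among pump accessory genes, Rogdi and Dmxl1, which belong to the assembly complex of the pump, stood at 1.4 and 0.739 in siSRSF1 and 1.2 and 1.09 in siSRSF2. Ccdc115, an assembly factor, stood at 1.25 and 1.12, Clcn7, a chloride-proton exchanger, at 0.921 and 1.17, and Atp6ap2, the prorenin receptor, at 0.938 and 0.868. Among hydrolases, Galns, which acts on keratan sulphate, stood at 1.25 and 0.771, and Gla, alpha-galactosidase, at 0.919 and 0.668. Hyal2 stood at 1.47 and 0.939, Ids, a sulphatase, at 0.763 and 0.936, and Idua, which acts on the same substrates, at 0.818 and 1.08. Dpp7, a dipeptidyl peptidase, stood at 0.898 and 1.27, and Ctbs, chitobiase, at 1.17 and 1.32.

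Among membrane and transport genes, Slc38a9, the arginine sensor of the lysosome, stood at 0.7 and 0.787 and Slc17a5, the sialic acid exporter, at 0.827 and 0.74. Tmem175, an ion channel, stood at 0.759 and 1.13, Laptm4b at 0.793 and 1.1, and Abcd4, a cobalamin transporter, at 1.27 and 1.56. Of the sorting adaptors and receptors, Gga1, Gga3 and Sort1 stood at 1.08, 0.898 and 0.906 in siSRSF1 and at 1.19, 0.782 and 0.842 in siSRSF2. Serpinb6a, a protease inhibitor, stood at 0.871 and 0.794.

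Of the initiation genes, Nrbf2, which binds the PI3-kinase complex, stood at 1.22 and 1.52, and the kinase gene Ulk1 at 1.08 and 0.864. The scramblase genes Tmem41b and Vmp1 stood at 1.14 and 0.96 in siSRSF1 and 0.79 and 0.786 in siSRSF2, and Wipi2 at 1.04 and 1.36. Among receptors, those of the endoplasmic reticulum, Tex264, Sec62 and Retreg2, stood at 0.743, 0.814 and 1.08 in siSRSF1 and at 1.1, 0.93 and 0.886 in siSRSF2. The mitophagy receptors Phb2 and Fundc1 stood at 1.48 and 0.901, then 1.4 and 0.79, and Stbd1, a glycogen receptor, at 1.26 and 1.4. Among fusion genes, those of the BORC complex, which positions lysosomes, were mixed, with Borcs5, Borcs7 and Borcs8 at 1.34, 1.06 and 0.746 in siSRSF1 and 1.49, 0.813 and 1.19 in siSRSF2. Arl8a, its small GTPase partner, stood at 1.22 and 1.12 and Vamp7, a SNARE, at 0.744 and 0.723. The tethering subunits Vps11 and Vps33a stood at 0.9 and 0.986, then 1.17 and 1.21. In the last list, Mitf, a relative of Tfeb, stood at 0.69 and 1.02, and Lamtor5, a Ragulator subunit, at 1.41 and 0.993. The Rag GTPase genes Rraga and Rragb stood at 1.03 and 1.05, then 0.796 and 0.848.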

How the data were processed

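The deposited table gives raw read counts and FPKM for 3 RNA-seq libraries of MIN6 cells, with 1 gene length a row. The authors' FPKM equals the counts divided by that length in kilobases and by the counted reads of the library, scaled as FPKM,, within 0.00045%. Bowtie2 2.4.2 and mm10 (GRCm38) stand in the submitters' processing notes. Neither the counting tool nor the use of strand is given in the sources used here. Exon overlaps with other genes are named above for some members only. Others overlap too, such as Atg9a with Gm29253 (up to 1072 bases, same strand) and Atg4d with Kri1 (792, opposite strand). Ctsl overlaps Gm47123 (977, opposite strand) and the pseudogene Gm49230 (395, same strand). The length equals the union of exons in GENCODE M21 for 98% of rows, so FPKM of genes with long alternative exons is low. Columns of other samples numbered 0.

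The members and lists were chosen with earlier results of these data known. Counts were scaled by TMM (edgeR 4.0.16, R 4.3.3), with factors of 0.991 in siNC, 0.99 in siSRSF1 and 1.02 in siSRSF2. Ratios used a prior of 0.5 reads and genes with at least 20 reads in any library. Intervals are 95% Clopper-Pearson (scipy 1.17.1) and, like the limit of 3 reads for a count of 0, cover counting error only. The size rule was at least 2-fold with an interval that excludes 1, and the script was tested on simulated data. GC and length corrections were lowess fits (statsmodels 0.14.6) of the log2 ratio over all genes. Alternatives were DESeq2 1.42.0 size factors, plain totals, other minimums of reads (none or 100), a prior of 2, the GC and length corrections, a 1.5-fold rule, 2-fold with no interval, and other length scales. Named genes were those past the size rule, the 6 highest and 6 lowest ratios among members with at least 100 reads, and, in each role, the 3 highest levels and the 2 highest and 2 lowest ratios. From each list the genes past the rule and the 2 highest and 2 lowest ratios qualified, and a few other genes are named for their role, chosen after their values were seen.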

Additional observations from a re-analysis of the deposited data

Results flagged for a closer look

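Atg9b lay on opposite sides of siNC in the 2 siRNA libraries, with a ratio of 2.83 in siSRSF1 and 0.554 in siSRSF2, from 61 reads in siNC, 198 in siSRSF1 and 40 in siSRSF2. It was singled out because both ratios were at least 1.5-fold, in opposite directions, with counting intervals that excluded 1. This held for 36 of 11756 genes (0.306%) and for 1 of 50 members (2%). The difference was not tested, since each group is 1 library.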

How the results depend on the processing

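No paired analysis was possible because each group holds 1 library. No ratio of a named member changed direction past the rule. Smaller ratios did change side of 1. In siSRSF1, GC correction took Lamp2 from 0.948 to 1.05, Atp6v1d from 0.967 to 1.04 and Atg2a from 1.08 to 0.91. GC correction left 1 member called higher in siSRSF1 and 0 in siSRSF2, as Map1lc3a (log2 0.77 and 0.86) and Tfeb (0.74) lost their calls; length correction also ended that of Map1lc3a in siSRSF1 (0.97). A 1.5-fold rule gave 2 members higher and 1 lower in siSRSF2, and 3 higher in siSRSF1 over siSRSF2. Plain totals moved the summed reads of siSRSF2 over siNC to 0.9285 for V0, 1.063 for V1, 0.9865 for cathepsins, 1.135 for membrane and regulator genes, 1.026 for ATG genes, 0.9697 for the Atg8 family and 1.029 for all members. The last was 0.9899 under median-of-ratios scaling. Plain totals moved siSRSF1 over siSRSF2 to 1.132, 1.026, 1.179, 0.989, 0.9516, 0.9979 and 1.061 in the same order. Sums near 1 thus changed side with scaling. The scaling shifted the median of all genes by at most 0.06 on the log2 scale. With 1 library a group, differences between cultures cannot be told apart from differences between treatments, and ratios of genes with few reads, such as Tfeb and Atg9b, have wide intervals.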
